A study of Homo sapiens and Mus musculus with 4 samples.

Results

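TNNT2, ACTA1 and CKM are 3 muscle genes, grouped here as contractile genes linked to the M-CAT motif, the DNA element bound by TEAD transcription factors. In the human promoters read here, the core of that motif was found at TNNT2 and ACTA1 but not at CKM. TEAD binding around them was read from 2 deposited lists of ChIP-seq peaks, regions where chromatin immunoprecipitated with a TEAD antibody gave more reads than a control. A peak was counted for a gene when its midpoint lay within 100 kb of the transcription start site (TSS), on either side. The lists held 39 such peaks of 69714 in all, 13 of 22681 in the human list and 26 of 47033 in the mouse list.

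The human list came from RD, an established embryonal rhabdomyosarcoma cell line, with 1 TEAD library called against 1 IgG library, in which a non-specific antibody was used. The mouse list came from YAP-ERMS, cells of tumours driven by the Hippo pathway effector YAP1 under Myf5-Cre or Pax7-CreER, with 1 TEAD library called against 1 library of input chromatin. Myf5 and Pax7 mark muscle progenitor and satellite cells, and the labels do not say which driver these cells carried. All 4 libraries were single, so no value here has a replicate error, no test was made, and human and mouse values are given side by side without a ratio. Peak lists hold no expression values, so the cell types could not be checked against marker genes.

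TEAD proteins are the DNA-binding partners of YAP1 and TAZ, which the Hippo kinases keep out of the nucleus. The M-CAT motif was first described in the promoter of the chicken cardiac troponin T gene, and TEAD1 was known in muscle biology as its binding factor. TNNT2 encodes cardiac troponin T, the tropomyosin-binding subunit of the troponin complex, made in the adult heart and transiently in embryonic skeletal muscle. ACTA1 encodes skeletal muscle alpha-actin, the main actin of the thin filament in skeletal muscle. CKM encodes the muscle form of creatine kinase, which regenerates ATP at the sarcomere and, in the mouse, is controlled by a well-studied upstream enhancer with E-boxes.

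The promoter sequences show which of the genes carries an M-CAT core next to its start. They are the 250 bases before the start in RefSeq (GRCh38.p14, minus strand, chr1:201377681-201377930 for TNNT2, chr1:229434095-229434344 for ACTA1 and chr19:45322876-45323125 for CKM). Capitals mark the M-CAT core CATTCC or its reverse complement GGAATG in TNNT2 and ACTA1, and the E-box CAGCTG in CKM, where no M-CAT core was found.
TNNT2: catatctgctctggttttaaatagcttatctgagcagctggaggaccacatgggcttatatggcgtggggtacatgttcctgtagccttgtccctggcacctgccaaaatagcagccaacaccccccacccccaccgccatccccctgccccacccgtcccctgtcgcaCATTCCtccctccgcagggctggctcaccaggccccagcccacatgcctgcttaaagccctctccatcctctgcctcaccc
ACTA1: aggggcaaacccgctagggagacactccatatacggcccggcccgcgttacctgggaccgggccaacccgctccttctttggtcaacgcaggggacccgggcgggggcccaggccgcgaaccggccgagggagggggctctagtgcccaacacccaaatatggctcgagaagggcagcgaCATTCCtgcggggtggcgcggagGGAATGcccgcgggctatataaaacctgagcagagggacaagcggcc
CKM: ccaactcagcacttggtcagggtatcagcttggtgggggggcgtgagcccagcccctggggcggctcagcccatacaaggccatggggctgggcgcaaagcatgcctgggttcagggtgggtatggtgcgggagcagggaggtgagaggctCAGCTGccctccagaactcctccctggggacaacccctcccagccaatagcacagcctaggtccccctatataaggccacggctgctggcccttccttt

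TNNT2 held 1 M-CAT core, 81 to 76 bases before its start, and ACTA1 held 2, of which the first lay 70 to 65 bases before the start and the second, on the other strand, 47 to 42 bases before it. The core of TNNT2 and the first core of ACTA1 both extended to CATTCCT and to ACATTCC, overlapping forms of the same motif. Over both strands of all 35116 RefSeq promoters of 300 bases, which include 50 bases after the start, 14.0% held CATTCC and 1.37% held it at least 2 times. CATTCCT was in 4.77% of them and ACATTCC in 3.46%. The CKM promoter had 1 CAGCTG E-box, 99 to 94 bases before its start, and 17.9% of all promoters held one. TNNT2 also had the E-box 216 to 211 bases before its start and once more after the start. The ACTA1 promoter had a CArG box, the site of serum response factor, 97 to 88 bases before its start, and 1.29% of promoters held that box. Mouse promoters were not analysed here. A match is a description of the letters in this window and not a measured site.

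The same window was read for a list of 35 other contractile and muscle genes, of which 21 had a promoter in the table. CATTCC was present in 5 of the 21 (23.8%), against 14.0% of all promoters. These 5 were MYH1, MYH2, MYH6, MYL1 and TTN, which encode myosin heavy and light chains and titin. CATTCCT and ACATTCC were each present in 1 of the 21 (4.76%), MYH6, the fast cardiac myosin heavy chain. That share was close to the 4.77% and 3.46% of all promoters. CAGCTG was present in 7 of the 21 (33.3%), against 17.9% of all promoters. The CArG box was present in 2 (9.52%), ACTC1 and LDB3, against 1.29%. An annotation of the builds of the peak lists was not used here, so peaks near these other genes were not counted.

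The TSS positions, given to the nearest kb and so with an error of up to 0.5 kb, were 201347000 on chromosome 1 for TNNT2, 229570000 on chromosome 1 for ACTA1 and 45826000 on chromosome 19 for CKM (hg19). In mm9 they were 137733000 on chromosome 1 for Tnnt2, 126419000 on chromosome 8 for Acta1 and 19996000 on chromosome 7 for Ckm. Peaks were not spread evenly over the 3 genes. TNNT2 had 8 peaks within 100 kb in RD, CKM had 3 and ACTA1 had 2. In YAP-ERMS, Tnnt2 had 18, Ckm had 6 and Acta1 had 2. At this distance and over all scores, troponin T was the gene with the most peaks and skeletal actin the gene with the fewest in both lists. The order depended on both limits. Within 50 kb, ACTA1 had 2 peaks and CKM 1 in RD, and Acta1 and Ckm had 2 each in YAP-ERMS. At scores of 320 or more within 100 kb, Tnnt2 and Ckm had 4 each in YAP-ERMS. A TEAD peak within 10 kb of the TSS was present at TNNT2 (2 peaks in RD, 2 in YAP-ERMS) and none was listed within that distance of ACTA1 or CKM in either cell type. Over all windows of 20 kb, 11.4% held a peak in RD and 24.8% in YAP-ERMS.

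As a background, each chromosome was tiled with windows of 200 kb from its first to its last peak, the same length as a gene's window. In RD, 50.6% of 14645 windows held at least 1 peak, with a median of 1 and an upper quartile of 2 peaks per window. In YAP-ERMS, 71.0% of 12806 windows held at least 1, with a median of 2 and an upper quartile of 6. All 6 gene windows held a peak, and so did most YAP-ERMS windows and close to an even share of RD windows. The tiled windows are not centred on genes and include gene-poor stretches.

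**Figure D1:**
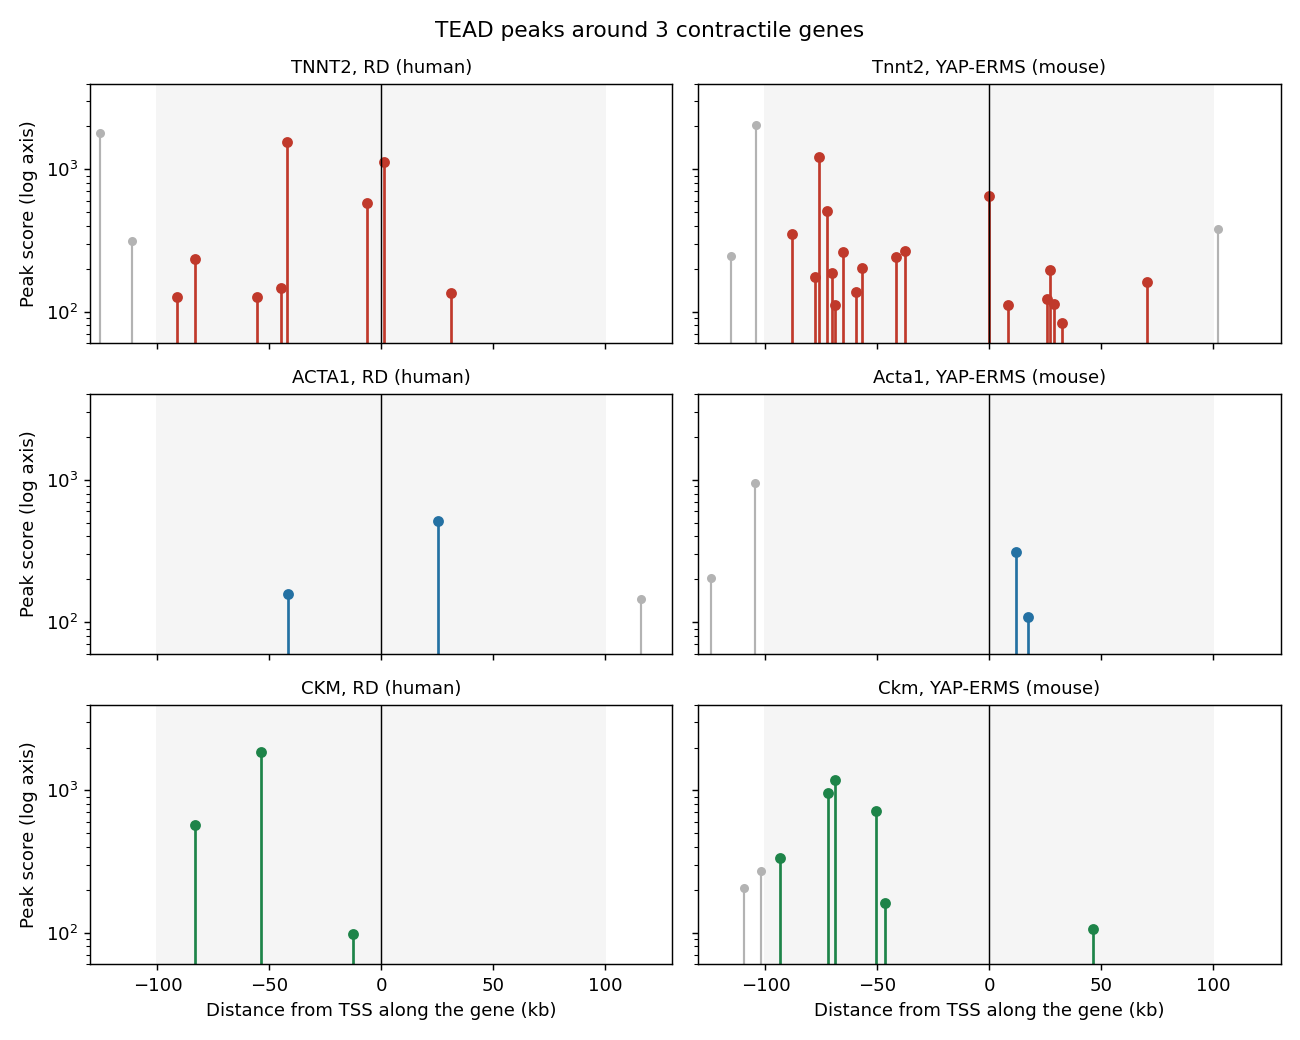
TEAD peaks around the TSS of TNNT2, ACTA1 and CKM in RD (left) and YAP-ERMS (right). The x axis is the distance of the peak midpoint from the TSS in kb along the gene, negative upstream, and the y axis is the peak score on a log scale; grey points lie outside 100 kb. TNNT2 alone has peaks within 10 kb of its TSS, and the ACTA1 panels hold 2 peaks each inside the shaded range.

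The 8 peaks at TNNT2 were reached by 3.55% of RD windows, and the 18 at Tnnt2 by 0.742% of YAP-ERMS windows. Against windows of chromosome 1 only, the shares were 4.42% in RD and 0.518% in YAP-ERMS. The 3 peaks at CKM were reached by 22.1% of RD windows, but by 40.6% of those on chromosome 19, which had a median of 2 peaks. At Ckm, 6 or more peaks were found in 26.8% of YAP-ERMS windows and 23.2% of those on chromosome 7. The 2 peaks at ACTA1 were reached by 32.8% of RD windows and 40.2% of those on chromosome 1. The 2 at Acta1 were reached by 58.9% of YAP-ERMS windows and 57.8% of those on chromosome 8. By this count over all scores, Acta1 sat at the median of its list, and both TNNT2 windows sat in the upper tail. Such shares were not computed for joined or higher-scoring peaks. With peaks within 1 kb joined, 8 were left at TNNT2 and 13 at Tnnt2. At scores of 320 or more, 3 and 4 were left.

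**Figure D2:**
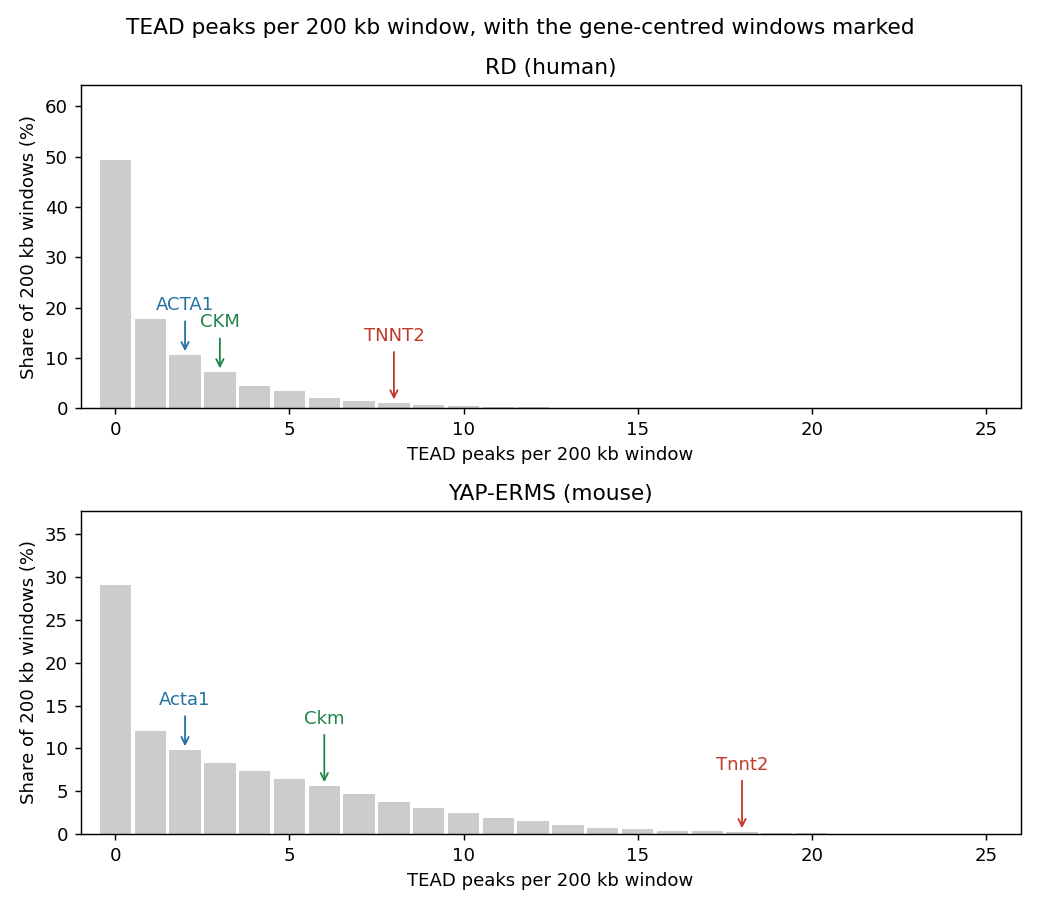
Share of 200 kb windows (y axis, percent) by the number of TEAD peaks they hold (x axis) in RD (top) and YAP-ERMS (bottom). Arrows mark the number of peaks in the window centred on each gene: 8 for TNNT2, 2 for ACTA1 and 3 for CKM in RD, and 18 for Tnnt2, 2 for Acta1 and 6 for Ckm in YAP-ERMS.

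The peaks next to the TNNT2 TSS differed in placement between the lists. In YAP-ERMS a peak of 1148 bp at chr1:137732221-137733368 (mm9) contained the Tnnt2 TSS position, with its midpoint 0.21 kb upstream. With the TSS 0.5 kb further along the gene, it would end 132 bp short of it. Its score was 649, above 85.5% of the list. In RD the nearest peak was 834 bp wide at chr1:201345461-201346294 (hg19) and had a score of 1122, above 95.7% of the list. That peak lay downstream of the TSS position, with its midpoint at 1.12 kb and its near edge 706 bp away (206 to 1206 bp given the rounding). It therefore did not reach the M-CAT core printed for TNNT2, if the RefSeq start is the one used here. A second RD peak, of 566 bp and a score of 584, lay 6.36 kb upstream, and a second mouse peak, with a score of 111, lay 8.27 kb downstream.

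The deposited score is the authors' own value per peak, taken as 10 times −log10 of its p-value, and is ranked only within a list. The highest score at TNNT2 in RD was 1564, rank 404 of the list, in a peak 42.0 kb upstream at chr1:201388671-201389357. Weaker peaks, with scores of 147 and 127, followed it at 44.8 and 55.4 kb upstream. Further upstream lay peaks of 235 at 83.4 kb and 126 at 91.3 kb, and the only peak beyond the gene's start region on the downstream side had a score of 136 at 31.1 kb. In RD, 6 of the 8 peaks were upstream. Just outside the window, peaks with scores of 315 and 1802 lay 111 and 126 kb upstream.

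At Tnnt2 in YAP-ERMS, 12 of the 18 peaks were upstream, and 9 of these formed one run in which neighbours were no more than 12.5 kb apart. The run covered 32.5 kb, at chr1:137644273-137676804, from 88.7 to 56.2 kb upstream of the TSS. Its highest score was 1219 at 76.0 kb upstream, rank 2381 of the list, followed by 513 at 72.4 kb, and its lowest was 111. Runs of 9 or more peaks spaced this closely numbered 161 in YAP-ERMS and held 3.76% of its peaks. In RD, where 29 such runs held 1.34% of the peaks, the longest run at TNNT2 had 3 peaks. A further 4 mouse peaks lay downstream between 25.3 and 32.8 kb, with scores of 83.6 to 196. The last peak inside the window, with a score of 162, lay 70.2 kb downstream. The peak just outside the upstream limit, at 104 kb, scored 2033, above 98.7% of the list and above every peak inside.

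The median score at TNNT2 lay near the list's median in both lists. In YAP-ERMS, 7 of its 18 peaks scored above the list's median of 205, and the median of the 18 was 192. In RD, 4 of the 8 at TNNT2 scored above the list's median of 189, and the median of the 8 was 191. Those 4 scored 1564, 1122, 584 and 235, above 98.2%, 95.7%, 85.9% and 59.0% of the list. The rest lay above 29.8% to 37.9% of it. A highest score of at least 1564 was found in 2.55% of RD windows of 200 kb, and one of at least 1219 in 14.1% of YAP-ERMS windows.

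CKM had fewer peaks than TNNT2 in both lists when all scores were counted, with higher median scores, but at scores of 320 or more Ckm and Tnnt2 had 4 each. In RD its 3 peaks were all upstream. The highest, with a score of 1855 (rank 223, above 99.0% of the list), was 773 bp wide and lay 53.7 kb upstream at chr19:45879312-45880084. This was also the highest score of the 13 RD peaks at the 3 genes, and 1.42% of RD windows held one at least as high. The peak at 83.0 kb upstream scored 572 and the one at 12.9 kb upstream scored 97.8, above 15.6% of the list. The median of the 3 was 572.

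In YAP-ERMS, 5 of the 6 peaks at Ckm were upstream, between 46.7 and 93.7 kb. The highest score, 1173, was at 68.8 kb (chr7:19926684-19927799), and its neighbour at 72.1 kb (chr7:19923460-19924405) scored 954. A highest score of at least 1173 was found in 15.0% of YAP-ERMS windows of 200 kb. The other three upstream peaks scored 711 at 50.6 kb, 333 at 93.7 kb and 161 at 46.7 kb. The one downstream peak scored 105 at 46.1 kb, and the rounding of the TSS does not allow an order between it and the peak at 46.7 kb upstream. Of the Ckm peaks, 4 of 6 scored above the list's median, with a median of 522. Just outside the window, peaks of 273 and 207 lay 102.2 and 110 kb upstream.

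No peak was listed directly around the CKM TSS. In RD the nearest peak was 12.9 kb upstream, while downstream of the TSS the next peak was 432 kb away. That left a gap of 445 kb between midpoints, the 18th longest of 693 gaps on chromosome 19, and 6.25% of all gaps in the list were as long or longer. In YAP-ERMS the TSS lay in a gap of 92.8 kb, about midway between peaks at 46.7 kb upstream and 46.1 kb downstream, and 12.2% of gaps were at least as long. Gap lengths had medians of 33.1 kb (RD list) and 17.9 kb (YAP-ERMS list). By length, 53.0% of the RD span and 64.1% of the YAP-ERMS span lay in gaps at least as long as these.

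ACTA1, with 2 M-CAT cores in its human promoter, had no listed peak within 10 kb of its start in RD. Acta1, whose promoter was not analysed, had none in YAP-ERMS. Most windows of 20 kb also held no peak, as only 11.4% in RD and 24.8% in YAP-ERMS held one. In RD its peaks lay 25.4 kb downstream, with a score of 514 (chr1:229544358-229544777, 420 bp), and 41.8 kb upstream, with a score of 158. In YAP-ERMS both peaks lay downstream, at 12.04 kb with a score of 314 (chr8:126406226-126407699, 1474 bp) and at 17.0 kb with a score of 109. Of all 200 kb windows, 17.7% in RD held a score at least as high as the highest at ACTA1. In YAP-ERMS 49.4% did so for Acta1. The nearest upstream mouse peak was 105 kb from the TSS, just outside the window, and scored 948. The ACTA1 TSS lay in a gap of 67.3 kb, and 34.8% of RD gaps were as long or longer. The Acta1 TSS lay in a gap of 117 kb, reached by 9.21% of YAP-ERMS gaps. By length, 90.2% of the RD span and 58.4% of the YAP-ERMS span lay in gaps at least as long as these.

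**Figure D3:**
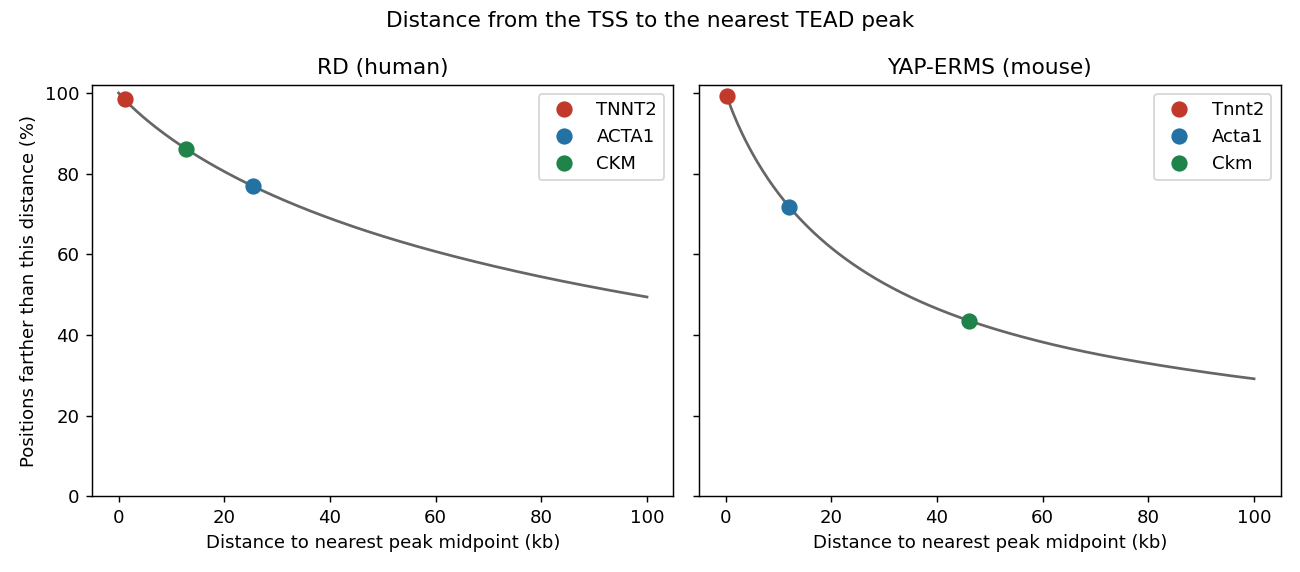
Distance from each TSS to the nearest peak midpoint (x axis, kb) set against the share of all positions between the first and last peaks of the chromosomes that lie farther from any peak (y axis, percent; grey line) in RD (left) and YAP-ERMS (right). TNNT2 sits at 1.12 and Tnnt2 at 0.21 kb, where 98.4% and 99.2% of positions are farther; Ckm sits at 46.1 kb, where 43.5% are.

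Set against all positions between the first and last peaks of the chromosomes, the TNNT2 TSS was nearer to a peak than 98.4% in RD and 99.2% in YAP-ERMS. The value was 86.1% for CKM and 76.9% for ACTA1 in RD, and 71.8% for Acta1 and 43.5% for Ckm in YAP-ERMS. Genes are not random positions, so these shares place the genes on the genome as a whole and not among other genes. With the TSS moved by 0.5 kb either way, the nearest distance was 0.62 or 1.62 kb at TNNT2 and 0.29 or 0.71 kb at Tnnt2. The shares were not recomputed for these distances.

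The width of each peak was compared with that of the 500 peaks of its list closest in score. It was above their median for 9 of the 13 RD peaks and 17 of the 26 YAP-ERMS peaks. Set against such a median, close to an even share of any peaks would be above it. Some of the RD peaks were only just above, at 1.01 and 1.02 times the median. The Ckm peaks at 72.1 and 68.8 kb upstream were 946 and 1116 bp wide, against medians of 1456 and 1520 bp at similar scores, and 1.2% and 7.4% of those peaks were narrower. The Tnnt2 peaks at 28.9 and 27.1 kb downstream were wide for their scores, at 1463 bp against 934 bp and 1508 bp against 1079 bp, and 95.4% and 89.2% were narrower. The Tnnt2 peak at 56.95 kb upstream (1510 bp against 1069 bp, 90.4% narrower) and the Ckm peak at 93.7 kb upstream (1715 bp against 1178 bp, 88.6% narrower) were also wide. In RD the peak beside the TNNT2 TSS was 834 bp wide against 636 bp, with 88.4% narrower, and both ACTA1 peaks were narrower than the median, at 0.846 and 0.902 times its value. Both Acta1 peaks in YAP-ERMS were wider than the median, at 1195 bp against 921 bp for the one at 17.0 kb downstream (89.6% narrower) and 1474 bp against 1174 bp for the nearer one (81.4% narrower).

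**Figure D4:**
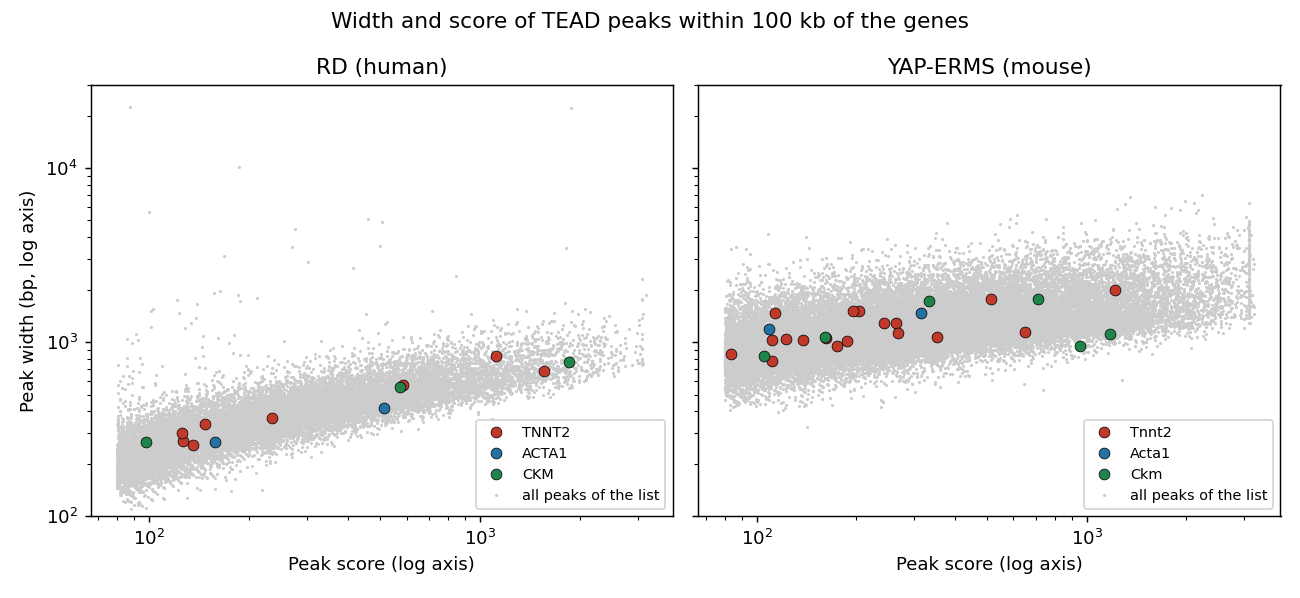
Width (y axis, bp, log scale) against score (x axis, log scale) for every peak of the RD (left) and YAP-ERMS (right) list in grey, and for peaks within 100 kb of the genes in colour. The 2 Ckm peaks with scores of 954 and 1173 lie low in the YAP-ERMS cloud, with 1.2% and 7.4% of peaks of similar score narrower.

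Over the 3 genes together, 7 of 13 RD peaks and 12 of 26 YAP-ERMS peaks scored above their list's median. Scores over 500 were held by 6 of 13 in RD, against 17.4% of the list, and by 6 of 26 in YAP-ERMS, against 20.4%. Upstream peaks numbered 10 of 13 in RD and 17 of 26 in YAP-ERMS, with TNNT2 and CKM contributing all but 1 of the RD ones and Acta1 none of the mouse ones. One run at Tnnt2 held 9 of the mouse ones. The upstream share was not computed for other genes, so these counts do not show an upstream excess. Peaks of 1 gene share a library and a neighbourhood and are not independent.

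The windows also hold other genes, so a peak within 100 kb is not assigned to the contractile gene. In GRCh38, used for gene order only, the coding genes next to TNNT2 on its upstream side are LAD1, TNNI1, PHLDA3 and CSRP1. TNNI1 encodes slow skeletal troponin I, another subunit of the troponin complex, and LAD1 encodes ladinin. On the upstream side of ACTA1 come NUP133, a nuclear pore subunit, and ABCB10, a mitochondrial transporter, and on its downstream side comes CCSAP. Upstream of CKM come KLC3, a kinesin light chain, ERCC2, a helicase of transcription and DNA repair, and PPP1R13L, and downstream comes MARK4, a microtubule-affinity regulating kinase. Which of these genes each peak overlaps was not determined, because the lists use hg19 and mm9.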

How the data were processed

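Chromatin bound by TEAD was sequenced from RD and YAP-ERMS cells, with IgG and input libraries as controls. Reads were aligned with Bowtie2, per the submitters' processing notes, which name the builds hg19 and mm9. The authors deposited 1 peak list per cell type, with peak names as MACS writes them. The score in the deposited lists was taken to be 10 times −log10 of a peak's p-value, because the lowest is 80 and the lists' names state a limit of 1e-08. Versions, read filters and the handling of duplicates were not given in the sources used here. Depth is unknown, and it limits which peaks could be listed.

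Peaks were assigned by midpoint to TSS positions given to the nearest kb, an error of up to 0.5 kb. Gene strands for human come from RefSeq (GRCh38.p14) and those for mouse are known, not read from a file. Gaps run between midpoints, and runs are chains of peaks with at most 12.5 kb between edges. Y, random and unplaced sequences were left out of windows and gaps. Promoters and gene order come from RefSeq GRCh38.p14. The members TNNT2, ACTA1 and CKM, with every peak near them, and the list of 35 other genes were chosen with earlier results of these data known. Python 3.11.15, numpy 2.4.6 and pandas 2.3.3 were used, and the counting steps were tested on simulated data. With 1 library a group, no replicate was left out and no test was made.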

Additional observations from a re-analysis of the deposited data

How the results depend on the processing

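No paired analysis was possible because each group had 1 library. Depth, control and species limit any comparison of the lists, the TSS error is 0.5 kb, and the cause of the changes below was not tested. Counts moved by less than 1.5 times with peaks within 1 kb joined (Tnnt2 gave 13 in place of 18), by any overlap, and with the TSS moved by 0.5 kb. Within 10 kb the counts were 2 at TNNT2, 0 at ACTA1 and 0 at CKM in RD, and 2 at Tnnt2, 0 at Acta1 and 0 at Ckm in YAP-ERMS. Within 50 kb they were 5 at TNNT2, 2 at ACTA1 and 1 at CKM in RD, and 8 at Tnnt2, 2 at Acta1 and 2 at Ckm in YAP-ERMS, so ACTA1 had more than CKM and Acta1 as many as Ckm. Within 200 kb they were 15 at TNNT2, 3 at ACTA1 and 4 at CKM in RD, and 28 at Tnnt2, 10 at Acta1 and 13 at Ckm in YAP-ERMS, where Acta1 thus came close to Ckm. At scores of 160 or more, 4 were left at TNNT2, 1 at ACTA1 and 2 at CKM, and 12 at Tnnt2, 1 at Acta1 and 5 at Ckm. At 320 or more, 3 were left at TNNT2, 1 at ACTA1 and 2 at CKM, and 4 at Tnnt2, 0 at Acta1 and 4 at Ckm, so Tnnt2 and Ckm had as many.

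The highest score fell to 97.8 at CKM, 649 at Tnnt2 and 161 at Ckm within 50 kb, and within 200 kb it was 1802 at TNNT2, 2033 at Tnnt2 and 1047 at Acta1. The nearest peak was 11.3 kb from Acta1 by its edge. At scores of 160 or more it was 53.7 kb from CKM and 46.68 kb from Ckm, and at 320 or more it was 53.7 kb from CKM, 105 kb from Acta1 and 50.6 kb from Ckm. The share of 200 kb windows with a peak was 39.2% in RD and 61.7% in YAP-ERMS at 160 or more, and 26.4% and 48.9% at 320 or more.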
